A study of Mus musculus with 8 samples.

Results

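The unfolded protein response is the programme by which a cell adjusts its endoplasmic reticulum (ER) to the load of proteins being folded there. 10 mouse genes that mark it were followed in fat that lacks the lysophosphatidic acid receptor LPA4. They were taken by name, with every probe set that the platform annotation assigns to them: Hspa5, Hsp90b1, Dnajb9, Dnajc3, Calr, Pdia4, Herpud1, Sdf2l1, Xbp1 and Ddit3. Together they had 25 of the 45101 probe sets on the array, and they are 10 of the 18193 genes with a probe set of their own.

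RNA of epididymal white adipose tissue, a fat pad that lies next to the testis, was hybridised to Affymetrix 3′ expression arrays, 1 array per mouse. The 4 LPA4-KO mice were hemizygous for a deficient allele of the X-linked Lpar4 gene (Lpar4 -/Y), and the 4 wild-type (WT) mice were their littermates. All were males of the C57BL/6 background, 12 weeks old and on standard chow, and the labels give no drug treatment. The genotype is that of the whole mouse, so the arrays do not separate what the fat cell does by itself from what the rest of the animal does to it.

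Sensors of several kinds in the ER membrane start the response. ATF6 is cut in the Golgi to free a transcription factor, IRE1 splices the mRNA of Xbp1 so that it encodes an active factor, and PERK phosphorylates eIF2 alpha, which slows translation in general while favouring that of ATF4 and, further on, of CHOP. ATF6 and XBP1 chiefly induce chaperones, folding enzymes and the machinery that extracts misfolded proteins, whereas ATF4 and CHOP chiefly act on amino acid supply, redox balance and cell death. White fat cells secrete much protein, adiponectin and leptin among it, and rely on this folding capacity. Of the 10 genes, 9 were treated as ATF6/XBP1-type and Ddit3, which encodes CHOP, as PERK-type. Herpud1 and Xbp1 also receive input from more than one sensor.

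The deposited values have a property that decides what can be read from them. In 83.1% of all probe sets the 8 arrays lay within 0.1 log2 of each other, among them probe sets with very bright signals such as that of Adipoq, the adiponectin gene, at 13.83 in every array. Such nearly constant values do not show that a gene was unaltered. 15 of the 25 probe sets and 8 of the 10 genes spanned more than 0.1 log2 and are called varying here. The span runs over the arrays of both groups, so a difference between the groups can itself carry a gene past the limit. Adjusted p values and shares among the varying genes are therefore not free of the genotype comparison. Sdf2l1 and Ddit3 were nearly constant. Array medians lay between 6.50 and 6.51, and the interquartile range was narrower in the LPA4-KO arrays (1.39 in each) than in the WT arrays (1.40 to 1.43, exact two-sided permutation p = 0.0286, the smallest that 4 against 4 arrays can give). The 3′ to 5′ difference of the Actb control was 1.21 to 1.33 in LPA4-KO and 1.14 to 1.22 in WT arrays (exact permutation p = 0.171), and that of Gapdh gave an exact permutation p of 0.543. As a check of the labels, the Lpar4 probe set 1452424_at read 5.80 ± 0.05 in LPA4-KO and 6.52 ± 0.03 in WT fat (SD, n = 4 each, limma adjusted p = 0.00334), while the other 2 Lpar4 probe sets averaged higher in LPA4-KO fat (7.11 against 6.43, and 7.35 against 6.87) and were not called. Where these probe sets lie relative to the deletion is not given in the sources used here, and one that lies outside it is no check.

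All 8 varying genes had a positive mean difference between LPA4-KO and WT fat, with a median of 0.15 log2 and a range of 0.02 to 0.51. Only Dnajb9 was called when all genes were tested together, and Calr joined it when the varying genes were tested alone. The differences were small: the largest was 1.42-fold. Of all 4029 varying genes on the array, 46.6% had a positive difference, with a median of -0.03 log2. A gene was called where the limma test gave a Benjamini-Hochberg adjusted p under 0.05. Against the 1 of 10 called here, 1.31% of all genes were called in either direction and 0.863% higher in LPA4-KO fat. Among the varying genes alone, where 2 of the 8 were called, both higher, 21.3% were called in either direction and 9.78% higher. The groups did not overlap in 2 of the 8, Dnajb9 and Calr, with LPA4-KO higher, as they did in 14.4% of all varying genes.

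**Figure D1:**
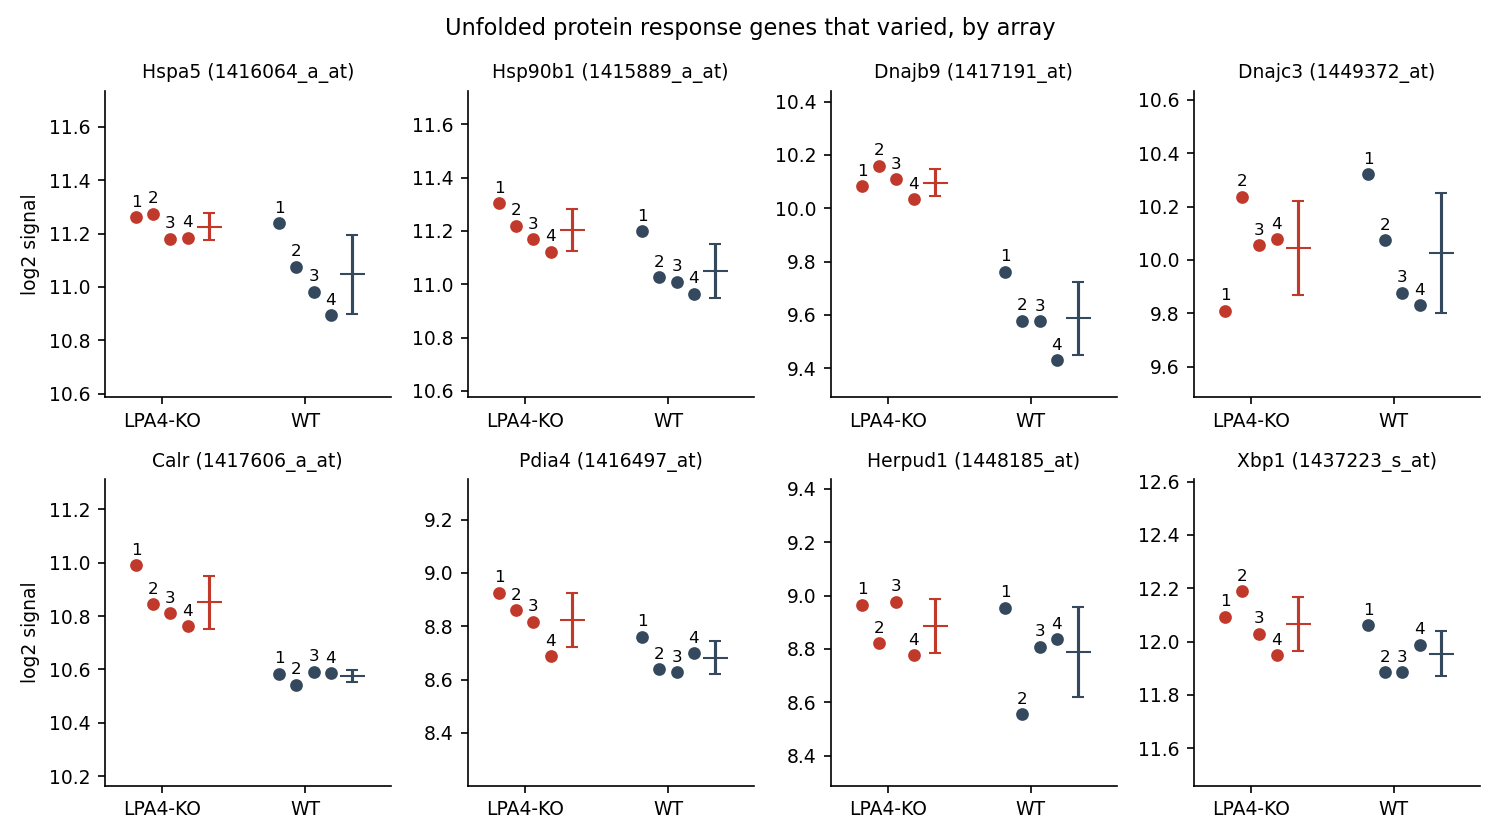
Log2 signal of the probe set that represents each varying gene, in the 4 LPA4-KO and the 4 WT arrays; points carry the replicate number, the dash and bar give the mean and SD (n = 4), and every panel covers the same height in log2. The groups are apart for Dnajb9 and Calr and overlap for the other 6 genes, where WT replicate 1 is the highest WT array.

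Dnajb9 encodes ERdj4, a J-domain co-chaperone of BiP that helps deliver misfolded proteins for degradation and can hold IRE1 inactive. Its single probe set, 1417191_at, read 10.08, 10.16, 10.11 and 10.03 log2 in the 4 LPA4-KO arrays, against 9.76, 9.58, 9.58 and 9.43 in the 4 WT arrays. The lowest LPA4-KO array thus stood above the highest WT array, and the LPA4-KO arrays lay closer together than the WT arrays. Dnajb9 rose by 0.51 ± 0.07 log2 (SE), or 1.42-fold, with a limma adjusted p of 0.036 over all genes and 0.00717 over the varying genes. Its size hardly depended on any single array, ranging from 0.46 to 0.57 log2 with each left out in turn. The call over all genes was lost without any one of LPA4-KO replicates 1 to 4 or WT replicates 2 to 4 (limma adjusted p from 0.0636 to 0.101), and held without WT replicate 1 (0.0333). Among the varying genes it held in each case.

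Calr encodes calreticulin, the lectin chaperone that binds calcium and retains unfolded glycoproteins in the ER. Its representative probe set, 1417606_a_at, read 10.99, 10.84, 10.81 and 10.76 log2 in LPA4-KO fat, against 10.58, 10.54, 10.59 and 10.59 in WT fat. Here the WT arrays were the tight group, so Calr counted as varying through the LPA4-KO arrays and the difference between the groups. The difference of 0.28 ± 0.05 log2 (1.21-fold) missed the threshold over all genes (limma adjusted p = 0.0603) and passed it over the varying genes (limma adjusted p = 0.019).

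Calr was read by 3 probe sets, and they gave the same picture. Probe set 1433806_x_at read 9.91, 9.65, 9.70 and 9.68 log2 in LPA4-KO and 9.28, 9.39, 9.42 and 9.35 in WT arrays, and 1456170_x_at read 9.64, 9.48, 9.43 and 9.34 in LPA4-KO and 9.22, 9.09, 9.17 and 9.11 in WT arrays. The groups did not overlap at either, with differences of 0.37 ± 0.06 and 0.33 ± 0.07 log2. In the fit of all probe sets their limma adjusted p values were 0.0642 and 0.0856, and in the fit of the varying probe sets 0.0155 and 0.0231. The background was 0.933% of 34945 probe sets called, and 18.8% of the 6682 that varied. The suffix x marks probe sets whose probes can also bind other transcripts, and probe sets of 1 gene read the same RNA, so they are not 3 independent tests.

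Hspa5 encodes BiP, the ER member of the Hsp70 family and the chaperone that keeps the sensors silent while it is bound to them. Its signal of 11.26, 11.28, 11.18 and 11.19 log2 in LPA4-KO arrays stood against 11.24, 11.08, 10.98 and 10.89 in WT arrays (1416064_a_at). WT replicate 1 read as high as the LPA4-KO arrays and the other WT arrays lay below all of them. The difference was 0.18 ± 0.08 log2 (limma adjusted p = 0.289 over all genes, 0.118 over the varying genes), and 0.14 ± 0.07 at its second varying probe set, 1427464_s_at.

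Hsp90b1 encodes GRP94, the ER form of Hsp90. Probe set 1415889_a_at read 11.30, 11.22, 11.17 and 11.12 log2 in LPA4-KO arrays, against 11.20, 11.03, 11.01 and 10.96 in WT arrays. Again WT replicate 1 lay within the LPA4-KO range and the other WT arrays below it. The difference was 0.15 ± 0.06 log2 (limma adjusted p = 0.272). At the second Hsp90b1 probe set, 1438040_a_at, WT replicate 1 was the highest of all 8 arrays at 10.86, against 9.99 to 10.17 in the other WT arrays and 10.21 to 10.52 in the LPA4-KO arrays, and the difference there was 0.08 ± 0.21 log2.

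Pdia4, a protein disulphide isomerase that forms and rearranges disulphide bonds (1416497_at), read 8.93, 8.86, 8.82 and 8.69 log2 in LPA4-KO arrays, against 8.76, 8.64, 8.63 and 8.70 in WT arrays. LPA4-KO replicate 4 lay inside the WT range. The difference was 0.14 ± 0.06 log2 (limma adjusted p = 0.272). Herpud1, which helps assemble the ubiquitin ligase complex of ER-associated degradation (1448185_at), read 8.97, 8.82, 8.98 and 8.78 in LPA4-KO arrays, against 8.95, 8.56, 8.81 and 8.84 in WT arrays, a difference of 0.10 ± 0.09 log2 (limma adjusted p = 0.67) with overlapping groups. Dnajc3 encodes P58IPK, an ER co-chaperone of BiP first known as an inhibitor of the kinase PKR. Its only varying probe set of 5, 1449372_at, read 9.81, 10.24, 10.06 and 10.08 in LPA4-KO arrays, against 10.32, 10.07, 9.88 and 9.83 in WT arrays, so the lowest value belonged to an LPA4-KO array and the highest to a WT array. The difference was 0.02 ± 0.14 log2 (limma adjusted p = 0.969), and its sign turned when LPA4-KO replicate 2, WT replicate 3 or WT replicate 4 was left out.

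Xbp1, the transcription factor of the IRE1 branch, was read by 4 probe sets, all of them varying. The representative one, 1437223_s_at, read 12.09, 12.19, 12.03 and 11.95 log2 in LPA4-KO arrays, against 12.06, 11.89, 11.89 and 11.99 in WT arrays. The groups overlapped, and the difference was 0.11 ± 0.06 log2 (limma adjusted p = 0.439). The other 3 probe sets of Xbp1 gave 0.18 ± 0.07, 0.14 ± 0.07 and 0.09 ± 0.10 log2, none of them called. Probe sets of this kind do not separate spliced from unspliced Xbp1 mRNA, so the activity of IRE1 was not measured.

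The 2 remaining genes gave no usable comparison. Sdf2l1, part of a chaperone complex with BiP, read 7.62 log2 in each of the 8 arrays at its single probe set. Ddit3 read 7.58 in each at 1417516_at and 6.50 at 1443897_at. With Ddit3 nearly constant, the 10 genes by themselves hold no varying PERK-type gene to set against the ATF6/XBP1-type genes.

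**Figure D2:**
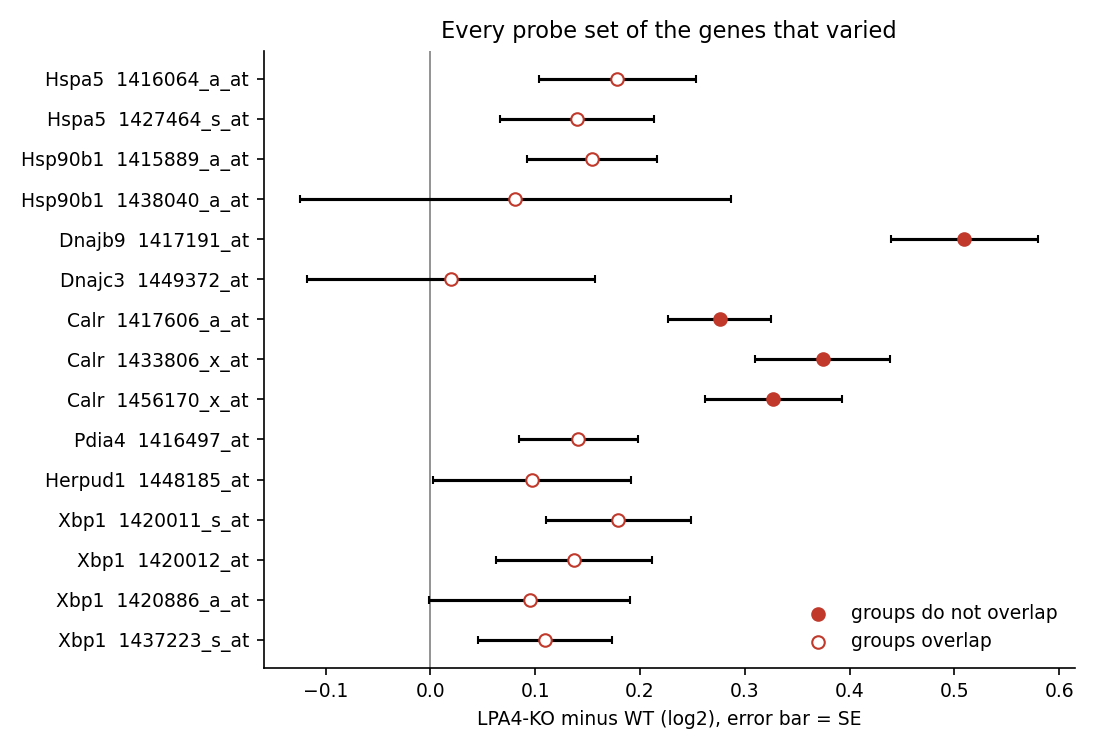
Difference between LPA4-KO and WT arrays (log2, with its limma SE) at the 15 varying probe sets, with filled points where the groups of 4 arrays do not overlap. The points all lie above 0, and the single Dnajb9 probe set and the 3 Calr probe sets are the ones with groups apart.

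On average over these genes WT replicate 1 stood apart from the other WT arrays, but not in Calr. At 1417606_a_at it read 10.58 log2, within the other WT arrays (10.54 to 10.59), and at 1433806_x_at it was the lowest WT array at 9.28. The mean over the 8 varying genes, as log2 difference from the WT mean, was 0.22, 0.24, 0.18 and 0.11 in LPA4-KO replicates 1 to 4, against 0.15 in WT replicate 1 and -0.04, -0.04 and -0.06 in WT replicates 2 to 4. Some markers of plasma cells, antibody-secreting cells with a very large ER, were highest in the same array. Of 8 measured plasma cell markers 5 varied, and their mean ranged from -0.44 to 0.32 in LPA4-KO arrays and from -0.40 to 0.93 in WT arrays, the highest being WT replicate 1. Jchain, the joining chain of secreted antibodies, read 6.84, 7.91, 6.99 and 7.18 log2 in LPA4-KO arrays, against 9.04, 6.89, 6.52 and 6.68 in WT arrays. Mzb1, an ER co-chaperone of antibody-secreting cells, read 6.24, 7.12, 6.26 and 6.37 in LPA4-KO arrays, against 7.83, 6.35, 6.41 and 6.43 in WT arrays. Pou2af1, a coactivator of B-lineage cells, read 5.54 to 5.85 in LPA4-KO arrays, against 6.84 in WT replicate 1 and 5.63 to 5.97 in the other WT arrays. The other 2 varying markers did not peak there. Sdc1, a surface proteoglycan, read 7.52 to 7.77 in LPA4-KO arrays and was highest in WT replicate 3 at 8.06, with 8.03 in WT replicate 1. Irf4, a transcription factor that other cell types of fat also express, was highest in LPA4-KO replicate 4 at 10.16, with 9.24 in LPA4-KO replicate 2 and 9.14 in WT replicate 1. The markers Tnfrsf17, Prdm1 and Cd79a were nearly constant.

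Without WT replicate 1, an alternative added after seeing the data, 4 of the 8 genes were called among the varying genes and all 4 were higher in LPA4-KO fat. In that fit 21.0% of all varying genes were called in either direction and 9.73% higher. WT replicate 1 was singled out by its high values in these same genes, so leaving it out was bound to raise their mean difference. The array was not chosen by the values of the other genes, so these shares are no like comparison and the added calls are no support. Hspa5 then rose by 0.24 ± 0.06 log2 (limma adjusted p = 0.0334) and Hsp90b1 by 0.20 ± 0.06 (limma adjusted p = 0.0494), beside Dnajb9 at 0.57 ± 0.07 and Calr at 0.28 ± 0.07. In the fit over all genes without WT replicate 1, Dnajb9 remained the 1 called gene of the 8, with 88 of all 18193 genes called. The part that plasma cells or another feature of WT replicate 1 play in these values was not tested.

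**Figure D3:**
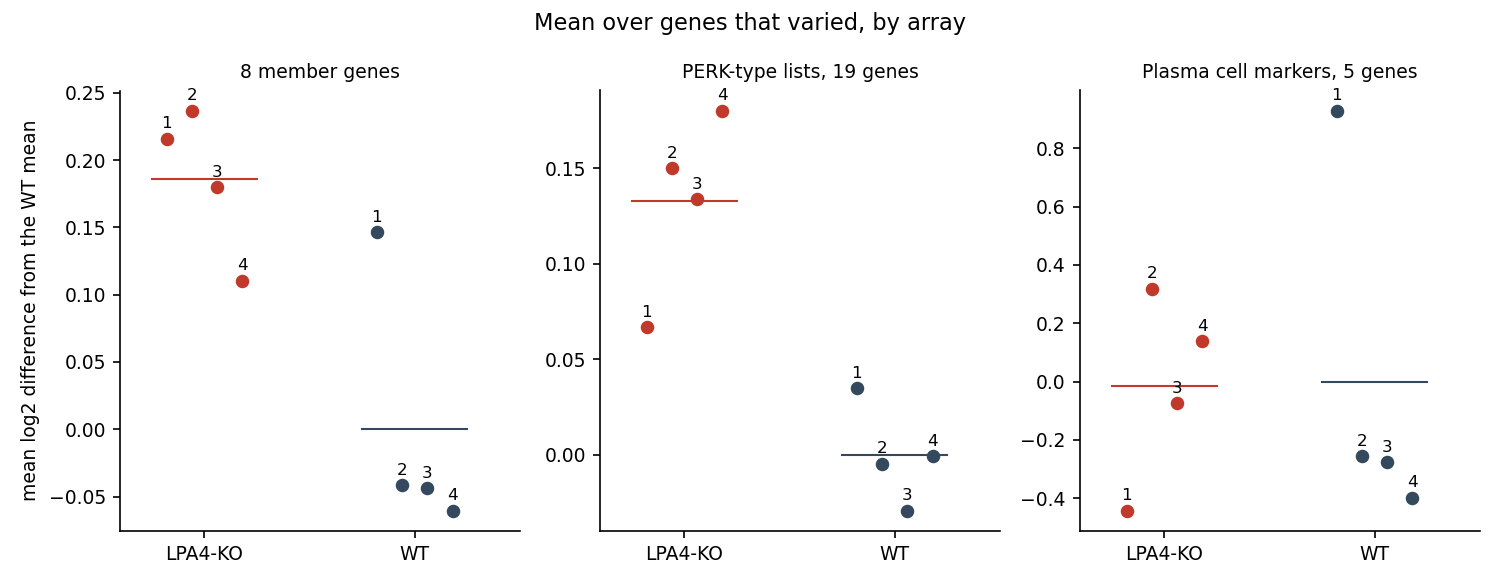
Mean over varying genes, as log2 difference from the mean of the WT arrays, for the 8 member genes, the PERK-type lists (19 genes) and the plasma cell markers (5 genes), in each LPA4-KO and WT array; points carry the replicate number and lines give group means. Each panel has its own vertical scale, and WT replicate 1 is the highest WT array in all 3, by the most in the plasma cell markers at 0.93.

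Markers of stromal and mesothelial cells had lower means in LPA4-KO fat. Fibroblast markers varied in 8 of 9 genes, all 8 with a negative difference. Only 1 of them, Dpt, was called by limma over all genes, beside 1.31% of all genes called in either direction. The mean of the fibroblast markers ranged from -0.57 to -0.24 in LPA4-KO and from -0.09 to 0.18 in WT arrays, with no overlap. Macrophage markers (9 of 10 varying, all negative) ranged from -0.33 to -0.11 in LPA4-KO and from -0.21 to 0.14 in WT arrays, and mesothelial markers (8 of 8, all negative) from -0.80 to -0.27 in LPA4-KO and from -0.43 to 0.41 in WT arrays. In the fit of varying genes 3 fibroblast, 2 macrophage and 3 mesothelial markers were called by limma, all lower, and no endothelial or adipocyte marker was. Of all 4029 varying genes 2153 had a negative difference and 465 were called lower. Of 8 endothelial markers 3 varied, Cldn5 (-0.61 ± 0.33), Pecam1 (-0.32 ± 0.19) and Emcn (0.28 ± 0.12), none of them called, and their mean ranged from -0.51 to -0.07 in LPA4-KO and from -0.13 to 0.19 in WT arrays. Of 8 adipocyte markers 6 varied, 4 with a positive difference, and their mean ranged from -0.05 to 0.05 in LPA4-KO and from -0.18 to 0.12 in WT arrays. All 6 epididymis markers were nearly constant, at 5.94 to 6.56 log2, around the array median. In bulk tissue, fewer cells of a type and less RNA per cell cannot be told apart, and the part of cell composition in the values of the 10 genes was not tested.

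The varying genes did not all follow one another from array to array. After the group means were removed, Hspa5 and Dnajb9 had a Pearson r of 0.92 over the 8 arrays and Hspa5 and Hsp90b1 one of 0.88. Calr gave 0.18 with Hspa5 and 0.06 with Dnajb9. These coefficients describe 8 arrays of which WT replicate 1 is one, and carry no test. Among all varying genes, before the group means were removed, the 5 genes most like Dnajb9 were Mrpl12 (r = 0.990), 2010003K11Rik (0.988), Clcn4 (0.985), Slc25a5 (0.979) and Cacybp (0.979). The 5 most like Hspa5 were Fndc3a (0.981), Dleu2 (0.980), Ncoa4 (0.953), Mrpl47 (0.948) and Papola (0.948). Hsp90b1 had rank 10 for Hspa5, with r = 0.936, and none of the 10 genes was among the nearest 5 of either.

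The promoters show how the 9 ATF6/XBP1-type genes differ in the elements through which the response is known to act. The ER stress element (ERSE), bound by ATF6 together with NF-Y, is CCAAT followed after 9 bases by CCACG. ERSE-II is ATTGG followed after 1 base by CCACG. The core of the unfolded protein response element (UPRE), bound by XBP1 and ATF6, was taken as ACGTGG, and the core of the CEBP-ATF response element (CARE) of ATF4 as TGATG followed after 1 base by AA. All were searched on both strands in RefSeq windows of GRCm38.p6 that run from 250 bases before to 50 bases after the start, which held all 10 genes. CCACG is part of both ERSE forms, and with T after it, it is the UPRE core read on the other strand, so matches can overlap.

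ERSE was present in 4 of the 9 windows, those of Hspa5, Hsp90b1, Dnajc3 and Calr, and in 39 of 32851 windows of all genes (0.119%). The element was first defined on promoters of such chaperone genes, so this is a description and not a finding. ERSE-II was present in the window of Herpud1 and in 0.0365% of all windows. The UPRE core was present in Dnajb9, Dnajc3 and Herpud1 and in 8.31% of all windows. The windows of Pdia4, Sdf2l1, Xbp1 and Ddit3 held none of ERSE, ERSE-II, the UPRE core and the CARE core, and those of Pdia4 and Sdf2l1 held CCACG alone. The matches are shown with 20 bases on either side, 5′ to 3′ on the strand of the gene, with the matched element in capitals, because the genes that were called differ in them. In its window Dnajb9 carries a UPRE core and no full ERSE, whereas Calr, like Hspa5, carries an ERSE. The whole window of Dnajb9 (chr12:44210019-44210318, minus strand) comes first. The excerpts lie at chr8:84847055-84847113 (Calr, minus strand), chr2:34772005-34772063 (Hspa5, plus strand), chr10:86705618-86705676 and chr10:86705513-86705571 (Hsp90b1, minus strand), chr14:118937807-118937865 (Dnajc3, plus strand) and chr8:94386357-94386407 (Herpud1, plus strand).
Dnajb9, whole window: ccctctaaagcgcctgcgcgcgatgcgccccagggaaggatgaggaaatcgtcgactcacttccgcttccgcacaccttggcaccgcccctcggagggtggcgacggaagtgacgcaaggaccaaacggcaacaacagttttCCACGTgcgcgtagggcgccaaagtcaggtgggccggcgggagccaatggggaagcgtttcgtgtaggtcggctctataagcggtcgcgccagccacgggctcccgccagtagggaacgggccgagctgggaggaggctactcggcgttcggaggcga
Calr, ERSE: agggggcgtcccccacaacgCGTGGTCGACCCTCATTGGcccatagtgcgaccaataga
Hspa5, ERSE: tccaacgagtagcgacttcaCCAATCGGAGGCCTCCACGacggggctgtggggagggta
Hsp90b1, ERSE: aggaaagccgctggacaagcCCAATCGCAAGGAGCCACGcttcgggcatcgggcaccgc
Hsp90b1, ERSE: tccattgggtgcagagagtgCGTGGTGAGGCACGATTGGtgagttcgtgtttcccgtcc
Dnajc3, ERSE: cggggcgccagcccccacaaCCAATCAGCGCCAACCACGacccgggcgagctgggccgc
Herpud1, ERSE-II: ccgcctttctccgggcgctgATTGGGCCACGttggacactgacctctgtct

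In the Dnajb9 and Calr windows and at the second Hsp90b1 site the element reads as its reverse complement. The ERSE begins 162 bases before the start in Calr, 65 in Hspa5, 212 and 107 in Hsp90b1 and 105 in Dnajc3, and the UPRE core of Dnajb9 begins 108 bases before it. Both the called genes and uncalled ones carry such elements: Hspa5 with an ERSE differed by 0.18 log2, Dnajc3 with an ERSE and a UPRE core by 0.02, and Herpud1 with an ERSE-II, a UPRE core and a CARE core by 0.10. Binding at these sites was not measured.

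To set ATF6/XBP1-type against PERK-type targets, wider lists were taken from textbook knowledge. The ATF6/XBP1-type lists held 63 measured genes of ER chaperones, disulphide formation, ER-associated degradation, and translocation and traffic, of which 29 varied. The PERK-type lists held 41 measured genes, ATF4 and CHOP with their targets and aminoacyl-tRNA synthetases, of which 19 varied. Neither the activity of PERK nor the phosphorylation of eIF2 alpha was measured, so PERK-type names the lists and is no readout of that sensor. In both types most varying genes had a positive difference, 22 of 29 (median 0.09 log2) and 13 of 19 (median 0.17 log2). Over all genes 2 of the 63 ATF6/XBP1-type genes rose and none fell by limma, and no PERK-type gene was called. Of all genes 0.863% were called higher and 1.31% in either direction. At an unadjusted limma p under 0.05 stood 19 of the 63 (30.2%) and 8 of the 41 (19.5%), beside 17.6% of all genes. In the fit of varying genes these were 12 of 29 and 7 of 19, beside 39.8% of all varying genes. The lists were chosen with earlier results known, so these shares are no test. Among the varying genes alone 3 of 29 ATF6/XBP1-type genes rose and 2 fell, while 4 of 19 PERK-type genes rose and 1 fell. Of all 4029 varying genes 46.6% had a positive difference. Of these 4029, 394 (9.78%) were called higher and 465 lower, which is 21.3% in either direction.

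**Figure D4:**
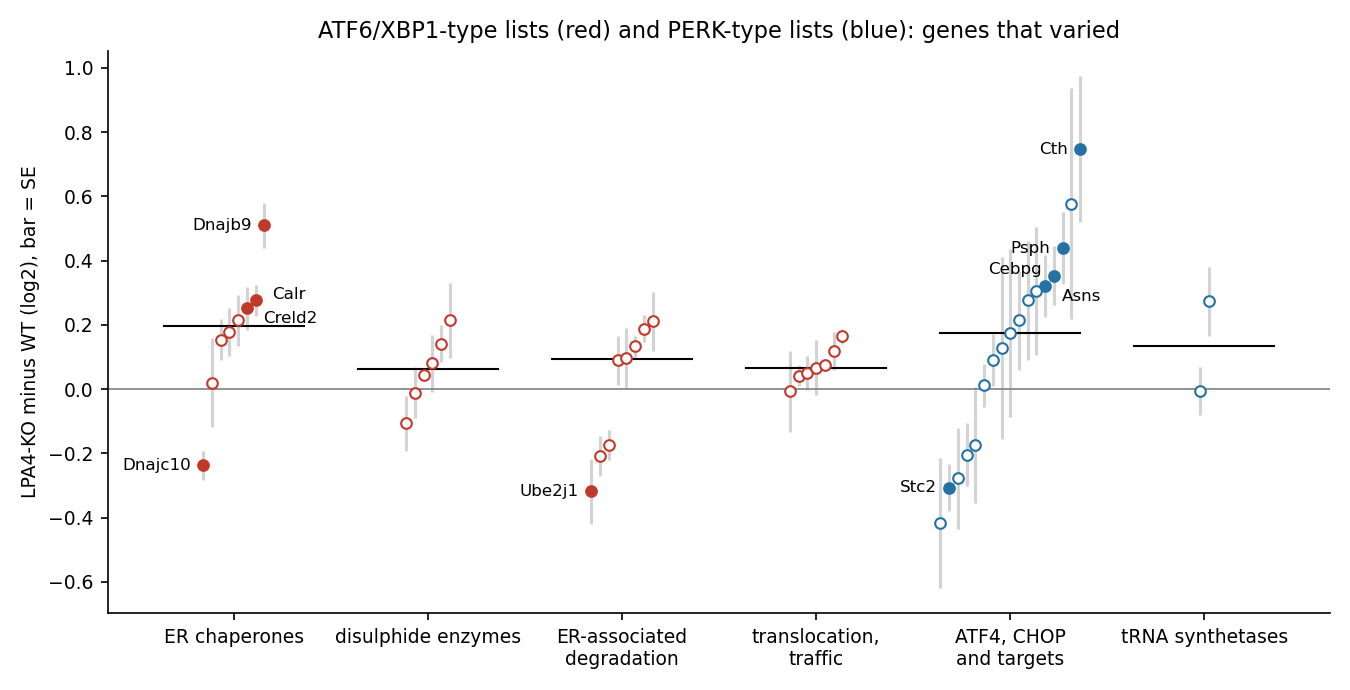
Difference between LPA4-KO and WT arrays (log2, bar = limma SE) for every varying gene of the ATF6/XBP1-type lists (red) and the PERK-type lists (blue), sorted within each list, with horizontal lines at the list medians. Filled, named points passed the limma threshold among the varying genes; the PERK-type genes spread more widely, from -0.42 to 0.75, than the ATF6/XBP1-type genes, from -0.32 to 0.51.

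As a mean over its 29 varying genes, the ATF6/XBP1-type stood at 0.07, 0.11, 0.09 and 0.04 log2 in LPA4-KO arrays and 0.05, -0.02, 0.01 and -0.04 in WT arrays. These overlap, since WT replicate 1 lay above LPA4-KO replicate 4. The mean over the 19 PERK-type genes was 0.07, 0.15, 0.13 and 0.18 in LPA4-KO and 0.03, 0.00, -0.03 and 0.00 in WT arrays, which do not overlap. The ATF6/XBP1-type minus the PERK-type mean differed by -0.05 log2 between LPA4-KO and WT fat, with overlapping groups (-0.14 to 0.00 in LPA4-KO and -0.04 to 0.04 in WT arrays). With members chosen on earlier results of these data, no test was made of that difference, and the 2 types are not shown to differ.

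Among ER chaperones and their co-factors, 7 of 8 varying genes were positive. At an unadjusted limma p under 0.05 over all genes stood 7 of the 13 measured (53.8%), beside 17.6% of all genes. In the fit of varying genes 6 of the 8 did, beside 39.8% of all varying genes. Creld2 and Manf, secreted or ER-resident stress proteins named here after their values were seen, differed by 0.25 ± 0.07 log2 (limma adjusted p = 0.130 over all genes, 0.0493 over the varying genes) and 0.21 ± 0.08 (0.234 and 0.0925). Dnajc10, the ER reductase ERdj5, also named after its values were seen, was the 1 negative gene. It read 8.68, 8.81, 8.69 and 8.60 log2 in LPA4-KO arrays, against 8.92, 8.93, 8.98 and 8.91 in WT arrays. It differed by -0.24 ± 0.05 log2 and fell among the varying genes (limma adjusted p = 0.0335, and 0.0688 over all genes). So 2 J-domain partners of BiP, Dnajb9 and Dnajc10, differed in opposite directions with no overlap of groups in either. Groups lay apart in 579 of the 4029 varying genes with LPA4-KO higher and in 584 with LPA4-KO lower. Hyou1, a large Hsp70-like chaperone, was nearly constant.

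Of 13 disulphide enzymes 6 varied, 4 positive and 2 negative, and none was called by limma in either fit, with 4 of the 13 at an unadjusted p under 0.05 over all genes (17.6% of all genes) and 0 of the 6 in the fit of varying genes (39.8% of all varying genes). P4hb and Pdia3, the classical disulphide isomerases, differed by -0.11 ± 0.08 and -0.01 ± 0.08 log2 (limma adjusted p = 0.582 and 0.970), and Ero1b and Txndc12 were nearly constant. In ER-associated degradation 5 of 8 varying genes were positive, and of 16 measured none was called by limma over all genes (5 at an unadjusted p under 0.05, beside 17.6% of all genes). Selenos, a membrane protein that recruits the extraction ATPase, differed by 0.19 ± 0.04 (limma adjusted p = 0.0862) and Hspa13 by 0.13 ± 0.03 (0.102), while Derl1, a part of the export channel, differed by -0.17 ± 0.05 (0.125), each without overlap of the groups. The ubiquitin-conjugating enzyme gene Ube2j1, named after its values were seen, differed by -0.32 ± 0.10 and fell among the varying genes (limma adjusted p = 0.0496, and 0.183 over all genes). Sel1l, named in the same way, differed by -0.21 ± 0.06 without overlap of the groups (limma adjusted p = 0.0738 over the varying genes and 0.167 over all).

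In translocation and traffic 6 of 7 varying genes were positive. Sec23b, a coat protein of the vesicles that leave the ER, read 8.44, 8.43, 8.42 and 8.44 log2 in LPA4-KO arrays, against 8.27, 8.23, 8.33 and 8.24 in WT arrays. It rose by 0.16 ± 0.02 log2 (1.12-fold, limma adjusted p = 0.0363 over all genes) but missed the threshold among the varying genes (limma adjusted p = 0.0663). The call over all genes held without WT replicate 3 (limma adjusted p = 0.0238) and was lost without any other single array (0.075 to 0.102). The signal peptidase subunit gene Spcs2 differed by 0.08 ± 0.02 (limma adjusted p = 0.0946), and Ssr3 and Spcs1 were nearly constant.

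Among 17 varying genes of ATF4, CHOP and their targets, 12 were positive. The 4 that rose among the varying genes, of which Psph alone was taken by the rule for named genes and the other 3 were named after their values were seen, were Cth, Psph, Cebpg and Asns. Cth, an enzyme that makes cysteine, read 7.53, 7.75, 7.15 and 7.19 log2 in LPA4-KO arrays, against 7.02, 6.16, 6.63 and 6.84 in WT arrays, without overlap. Its difference was 0.75 ± 0.23 log2 (1.68-fold, limma adjusted p = 0.0303 over the varying genes and 0.167 over all). Psph, the last enzyme of serine synthesis, read 7.69, 7.43, 7.48 and 7.26 in LPA4-KO arrays, against 7.00, 6.83, 7.07 and 7.20 in WT arrays, a difference of 0.44 ± 0.11 (0.0271 and 0.118). The asparagine synthetase gene Asns differed by 0.32 ± 0.10 (0.0409 and 0.167), and Cebpg, a dimer partner of ATF4, by 0.35 ± 0.09 (0.0294 and 0.124), both with 1 WT array inside the LPA4-KO range.

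Other genes of the list had differences of either sign. Stc2, the secreted glycoprotein stanniocalcin 2, read 6.84, 6.79, 6.75 and 6.84 log2 in LPA4-KO arrays, against 7.08, 6.93, 7.28 and 7.16 in WT arrays. It differed by -0.31 ± 0.07 and fell among the varying genes (limma adjusted p = 0.0414, and 0.0993 over all genes). Trib3, a target of both ATF4 and CHOP, named after its values were seen, differed by -0.42 ± 0.20 (limma adjusted p = 0.351) and Atf4 itself, named in the same way, by 0.09 ± 0.08 (limma adjusted p = 0.627). Phgdh, the first enzyme of serine synthesis, differed by 0.21 ± 0.15 (limma adjusted p = 0.542), and Eif4ebp1 was nearly constant. Ddit4, Psat1 and Cebpb, named after their values were seen, differed by 0.58 ± 0.36, 0.31 ± 0.20 and 0.28 ± 0.19 (limma adjusted p = 0.466, 0.494 and 0.507). The remaining negative genes of the list, Gadd45a, Slc3a2 and Chac1, differed by -0.28 ± 0.16, -0.20 ± 0.10 and -0.17 ± 0.18 (limma adjusted p = 0.417, 0.341 and 0.691). Of 12 aminoacyl-tRNA synthetases 2 varied, Mars1 (0.27 ± 0.11, limma adjusted p = 0.263) and Gars (-0.01 ± 0.08, 0.982), and Yars and Eprs were nearly constant.

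Of 11 measured sensors and direct regulators 2 varied. Beside Xbp1, Creb3l2, an ER-bound factor related to ATF6, differed by -0.40 ± 0.11 log2 and fell among the varying genes (limma adjusted p = 0.0316, and 0.146 over all genes). Atf6 was called over all genes (limma adjusted p = 0.0453), but its difference was 0.011 log2 at a nearly constant probe set and the call was lost whenever 1 array was left out, and Rtcb, the ligase that completes Xbp1 splicing, was nearly constant.

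Windows were given for 49 of the 63 ATF6/XBP1-type and 33 of the 41 PERK-type genes. ERSE was present in 18.2% of 55 windows of the ATF6/XBP1-type lists and in 0 of 38 windows of the PERK-type lists, against 0.119% of all windows. The UPRE core was present in 36.4% and 13.2%, against 8.31% of all windows. The CARE core was present in 5.45% and 34.2%, against 3.97% of all windows. CCACG, by itself or within a longer element, was present in 72.7% and 73.7%, against 32.8% of all windows. Windows of 1 gene can overlap, and these shares describe the lists, not what bound to them. The lists were taken as known targets of the factors that bind these elements, so the contrast between them is a description and not a finding.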

How the data were processed

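RNA of 4 LPA4-KO and 4 WT fat pads was measured, 1 array per mouse, and samples were grouped by the genotype in the labels. Values were used as the authors deposited them, 1 log2 value per probe set and array. The log2 scale was inferred from their range. R 2.14.0 is named in the submitters' processing notes. The methods of background correction, normalization and summarisation were not given in the sources used here, and the platform annotation named the probe sets (34945 with 1 symbol, 932 with several, left out). Where a gene had several, the one with the highest mean stood for it. limma 3.58.1 in R 4.3.3 (lmFit, eBayes with a trend) compared groups over all 18193 genes, over all named probe sets, and over genes spanning more than 0.1 log2, with Benjamini-Hochberg adjustment. Each SE given is that of the fit over all genes or all probe sets. For the values without WT replicate 1 it is that of the fit of varying genes. The steps were tested on simulated data. Arrays have no read depth, and precision is limited by their number.

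The members, the lists and the 0.1 log2 limit were chosen with earlier results of these data known. The rule for named genes took the 10 members, Lpar4, from each wider list every called gene, the 2 with the smallest p and the 2 with the highest level, and the 5 genes most like Dnajb9 and Hspa5. Of 12 sensors, 18 degradation, 22 translocation and 30 ATF4 genes listed, 1, 2, 1 and 1 had no probe set of their own and were not analysed here. Alternatives were other scalings, filters, variance settings, thresholds, probe set choices, a replicate block and each array left out. Promoter windows came from RefSeq tables of GRCm38.p6.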

Additional observations from a re-analysis of the deposited data

Results flagged for a closer look

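In 84 groups of 4 arrays examined, 5 had 1 array far from the other 3 by Dixon's criterion, and chance flags about 1 in 20 groups. The mean over the 8 varying unfolded protein response genes was 0.1463 log2 in WT replicate 1, against -0.06051 to -0.04177 in the other WT arrays. The mean of the plasma cell markers was 0.9291 in that same array, against -0.3977 to -0.2553 in the other WT arrays. At the Calr probe set 1417606_a_at, WT replicate 2 read 10.54 log2, and the other WT arrays 10.58 to 10.59, a gap that is small beside the difference between the groups. P4hb read 11.1 in LPA4-KO replicate 3, and 10.98 to 11.0 in the other LPA4-KO arrays. Creb3l2 read 8.575 in LPA4-KO replicate 3, and 8.248 to 8.28 in the other LPA4-KO arrays.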

How the results depend on the processing

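For the 8 varying genes, 143 of 160 values under other settings of the fit over all genes kept their direction and their side of the threshold, 5 newly passed it, 9 no longer passed it and 3 turned, all for Dnajc3. In the fit of varying genes 83 of 88 did, 2 newly passed it and 3 turned, again for Dnajc3. The 239 genes called (157 higher, 82 lower) became 9436 (8799 higher, 637 lower) after quantile normalization, 495 above the median level, 859 among varying genes, 361 with array weights, 0 and 882 at adjusted p under 0.01 and 0.10, and 9 to 88 with 1 array left out. The 326 probe sets became 19712, 595, 1259, 535, 1 and 1126 under the same settings, and 10 to 125 with 1 array left out. The 1 called member became 4 after quantile normalization (nearly constant Ddit3 among them), 2 above the median level, 2 among varying genes, 0 and 2 at those thresholds, and 0 to 1 with 1 array left out. Among varying genes alone the 859 became 405 to 847 and the 2 members 2 to 4, the 4 without WT replicate 1.

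The difference between the types, -0.05 log2, was -0.10 with the widest probe set per gene and -0.07 to -0.03 with 1 array left out. Uncalled values near 0 turned: Dnajc3 (1449372_at) to -0.044, -0.030 and -0.045 without LPA4-KO replicate 2, WT replicate 3 and WT replicate 4 (range -0.045 to 0.12), Hsp90b1 at 1438040_a_at to -0.014 without WT replicate 4 (range -0.014 to 0.28), Pdia3 to 0.014 with array weights and to 0.041, 0.027 and 0.0049 without LPA4-KO replicate 4, WT replicate 1 and WT replicate 3 (range -0.065 to 0.041), and Gars to 0.0081 after quantile normalization, 0.028 with array weights, and 0.024, 0.0018, 0.028 and 0.028 without LPA4-KO replicates 1 and 2 and WT replicates 1 and 2 (range -0.062 to 0.028). The cause was not tested. With the replicate number as a block, 0 genes, 3 probe sets and 0 members were called over all, Dnajb9 having an adjusted p of 0.123, and 747 genes and 2 members among the varying genes. Deviations of same-numbered arrays correlated at 0.018, 0.078, 0.242 and -0.182. LPA4-KO replicates 2 and 3 correlated best with the WT array of their own number, and LPA4-KO replicates 1 and 4 did not. With so few arrays this cannot decide whether the numbers pair the samples.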
